A study of Mus musculus with 20 samples.

Results

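A set of 10 genes of platelet-derived growth factor (PDGF) signalling and of mural cells was followed through the single-cell data: the ligands Pdgfa, Pdgfb and Pdgfc, the receptors Pdgfra and Pdgfrb, and the mural cell genes Rgs5, Kcnj8, Abcc9, Vtn and Notch3. They were picked by symbol, and all 10 were among the 16003 genes of the count table. Levels are counts of unique molecular identifiers (UMIs) summed over the cells of a cluster in a library and scaled to all UMIs of those cells (CPM, the usual counts-per-total scale).

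Spinal cord cells came from female C57BL/6J mice of 8 to 10 weeks that ate vehicle chow or chow with 1200 ppm PLX5622, an inhibitor of the CSF1 receptor that depletes microglia, from 2 weeks before surgery. Mice had a laminectomy only (sham) or a contusion at T9, and a 1 cm piece of cord was dissociated at 7 or 28 days post-injury (dpi), while the labels give both times for each sham library. Each of the 6 conditions was 1 library that pooled 3 to 4 mice, so differences between libraries have no replicate check and were not tested. All intervals below are exact 95% intervals that cover counting error only, and the limit given for a count of 0 is a floor of 3 counts. Bulk RNA-seq samples of the same study were not analysed here.

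PDGF ligands are secreted dimers that bind receptor tyrosine kinases. PDGF-B from endothelial cells binds PDGF receptor beta on pericytes and vascular smooth muscle cells, the mural cells that wrap vessels, and holds them at the vessel wall. PDGF-A and PDGF-C act mainly through PDGF receptor alpha, which oligodendrocyte progenitors and fibroblasts carry. Spinal cord injury is followed by vessel regrowth and by a scar in which cells with PDGF receptor beta take part.

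Upstream sequences are shown for 3 mural genes whose 250 bases before the RefSeq transcription start overlap no annotated exon (build GRCm38.p6). They let a reader compare what stands before genes that occur in the same cells. Each runs 5′ to 3′ on the gene's strand, and capitals mark the motifs found. Rgs5 lies at chr1:169655251-169655500 on the plus strand, Kcnj8 at chr6:142571615-142571864 on the minus strand, and Notch3 at chr17:32166891-32167140 on the minus strand.
Rgs5: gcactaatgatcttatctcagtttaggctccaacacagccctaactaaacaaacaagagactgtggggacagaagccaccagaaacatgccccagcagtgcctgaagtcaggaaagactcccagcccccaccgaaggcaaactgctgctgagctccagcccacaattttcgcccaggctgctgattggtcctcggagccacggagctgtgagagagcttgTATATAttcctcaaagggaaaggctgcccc
Kcnj8: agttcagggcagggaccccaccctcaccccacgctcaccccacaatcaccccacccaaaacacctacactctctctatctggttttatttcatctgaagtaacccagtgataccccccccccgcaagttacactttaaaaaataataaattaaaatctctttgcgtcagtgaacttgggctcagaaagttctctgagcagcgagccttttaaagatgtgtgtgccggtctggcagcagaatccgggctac
Notch3: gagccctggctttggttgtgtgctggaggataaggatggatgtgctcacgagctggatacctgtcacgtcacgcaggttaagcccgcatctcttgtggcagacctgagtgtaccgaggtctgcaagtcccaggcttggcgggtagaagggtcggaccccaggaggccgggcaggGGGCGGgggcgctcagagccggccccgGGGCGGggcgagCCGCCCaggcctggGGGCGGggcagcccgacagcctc
The motifs searched on both strands were TGGGAA (a core of RBPJ, the DNA partner of Notch), GTAAACA (a forkhead core), TATAAA (the TATA box), TATATA (which is its own reverse complement and can overlap the TATA box) and GGGCGG (a GC box). Their letters were chosen with these sequences in view. Rgs5 held TATATA with its first base at position -30 from the start. Notch3 held GGGCGG at positions -76, -49 and -23 and on the other strand at -37, where the printed strand reads its reverse complement. None of the 5 motifs was in the Kcnj8 window. Of 32851 promoters of the same length, 21.6% held the RBPJ core, 3.17% the forkhead core, 12.4% the TATA box, 5.25% its relative TATATA and 32.7% the GC box. RefSeq promoters were matched for 8 of the 10 genes. Kcnj8 and Abcc9, which code for the 2 subunits of one potassium channel, both lie on chromosome 6, 16247 bases apart.

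The count table held 21016 cells in 14 clusters, with 492 to 9846 cells and 2606149 to 35694246 UMIs per library and medians of 2268.5 to 5127 UMIs per cell. The labels state up to 121 more barcodes per library than the table holds, and those left out had under 200 genes. The study's methods also remove cells with over 3000 genes, yet 716 such cells were in the table. A barcode sequence occurred in more than 1 library 44 times. Cluster names follow marker lists, whose genes were highest in the named cluster for 6 of 6 endothelial, 6 of 6 astrocyte and 5 of 6 microglial markers. The cluster called fibroblast-like here (168 cells) was highest for 5 of 6 fibroblast markers (Dcn, Lum, Col1a1, Col1a2 and Col3a1) but also for 5 of 6 pericyte markers and 4 of 5 smooth muscle markers. No other cluster was highest for more than 1 pericyte marker. The study names Dcn as a gene specific to its pericyte cluster, so the name used here is a label and not a cell type.

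The ligands and receptors were highest in different clusters (heat map of levels by cluster). Pdgfb was highest in the endothelial cluster in 6 of 6 libraries, Pdgfra in the oligodendrocyte lineage in 6 of 6, and Pdgfrb and the 5 mural genes in the fibroblast-like cluster in 6 of 6. The endothelial cluster was second for Pdgfrb and for each mural gene. The 2 clusters with the most UMIs of a gene held 97.6% of the Rgs5 UMIs, 97.1% for Vtn, 94.8% for Abcc9, 92.2% for Kcnj8, 83.5% for Notch3 and 81.3% for Pdgfrb. For comparison, 8.17% of the 14706 genes with at least 20 UMIs were highest in the fibroblast-like cluster and 8.09% in the endothelial cluster.

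**Figure D1:**
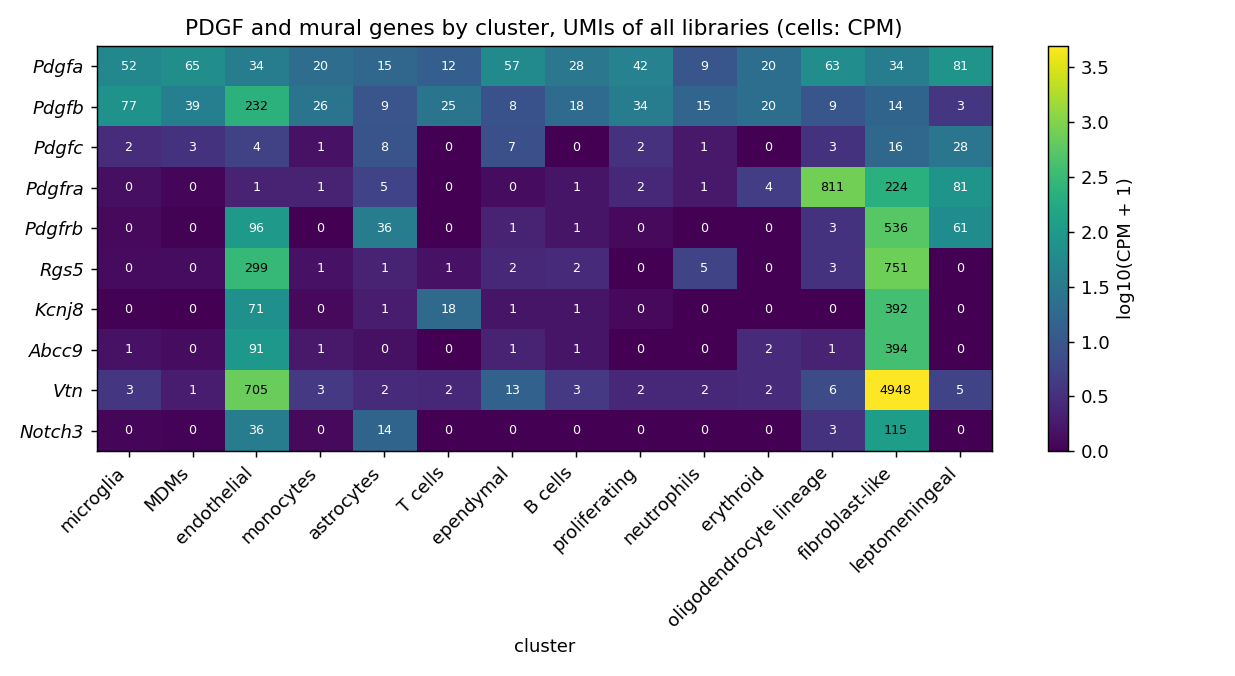
Level of each of the 10 genes (rows) in each of the 14 clusters (columns), UMIs of the 6 libraries together. Numbers in the cells are CPM and colour is log10(CPM + 1). Rgs5, Kcnj8, Abcc9, Vtn, Notch3 and Pdgfrb share their 2 highest columns, endothelial and fibroblast-like, while Pdgfra is highest in the oligodendrocyte lineage (811 CPM) and Pdgfb in the endothelial cluster (232 CPM).

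Pdgfb codes for the B chain, the main PDGF signal from endothelium to mural cells. In the endothelial cluster it was at 275 CPM in sham, 204.5 CPM at 7 dpi and 174.6 CPM at 28 dpi under vehicle. Under PLX5622 it was at 321.2, 272.6 and 240.8 CPM in the same order. In such sums fewer cells with the gene and less of its RNA per cell cannot be told apart. Levels were lower after injury in both diets, by less than 2-fold, and the log2 ratio of 28 dpi over sham under vehicle was -0.66 (-1.05 to -0.26). The interval excluded 0 under vehicle at both times and held it under PLX5622, where 28 dpi over sham was -0.42 (-0.87 to 0.02).

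Microglia and monocyte-derived macrophages (MDMs) also held Pdgfb, and there the gap between sham and injury was wider. In microglia it was at 170.3 CPM in sham, 54.2 CPM at 7 dpi and 72.8 CPM at 28 dpi under vehicle. The 29, 61 and 126 microglia of the PLX5622 libraries gave 162.4, 44.4 and 55.8 CPM from 23, 17 and 24 UMIs. Both sham libraries therefore lay above all 4 injury libraries, with no overlap of the intervals. For 7 dpi over sham the log2 ratio was -1.65 (-1.87 to -1.44) under vehicle and -1.87 (-2.87 to -0.90) under PLX5622. For 28 dpi over sham it was -1.23 (-1.42 to -1.03) and -1.54 (-2.43 to -0.65). The sham library of each diet is the base of both its ratios.

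A gene was read for a 2-fold difference where the pair of libraries held 20 or more of its UMIs in sum. In vehicle microglia 31.4% of such genes were past 2-fold at 7 dpi and 21.2% at 28 dpi. Of the 10 genes, 2 had enough UMIs at 7 dpi and Pdgfb alone was past 2-fold. At 28 dpi 4 had enough, Pdgfb was lower and Pdgfc higher past 2-fold, the latter from 2 and 19 UMIs with a log2 ratio of 1.33 (-0.72 to 4.48). The median gene itself was at a log2 ratio of -0.60 at 7 dpi and -0.47 at 28 dpi in CPM. With edgeR's TMM scaling, which moves that median to -0.05 and -0.04, the Pdgfb ratio was -1.10 and -0.80.

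In MDMs Pdgfb was lowest at 7 dpi, with 102.9 CPM in sham, 24.3 CPM at 7 dpi and 53.7 CPM at 28 dpi under vehicle, and 107.8, 18.9 and 49.7 CPM under PLX5622. The order sham, 28 dpi, 7 dpi was the same in both diets. The log2 ratio under vehicle was -2.08 (-2.35 to -1.81) for 7 dpi over sham, -0.94 (-1.20 to -0.67) for 28 dpi over sham and 1.14 (0.98 to 1.31) for 28 over 7 dpi. The shares of all genes past 2-fold were 20.5%, 12.6% and 11.1%. Of 3 members with enough UMIs, Pdgfb alone was lower past 2-fold at 7 dpi and 0 were past it at 28 dpi. With TMM, which moves the median gene from -0.30 to 0.00 at 7 dpi, the Pdgfb ratio was -1.78. Of 4 in the comparison of 28 with 7 dpi, 2 were higher, Pdgfb and, from 17 and 11 UMIs, Vtn. The cluster takes its name from Gpnmb, Spp1, Fabp5, Lgals3 and Ms4a7, and 185 of its cells came from the vehicle sham library and 9 from the PLX5622 sham library, where Pdgfb rested on 7 UMIs.

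**Figure D2:**
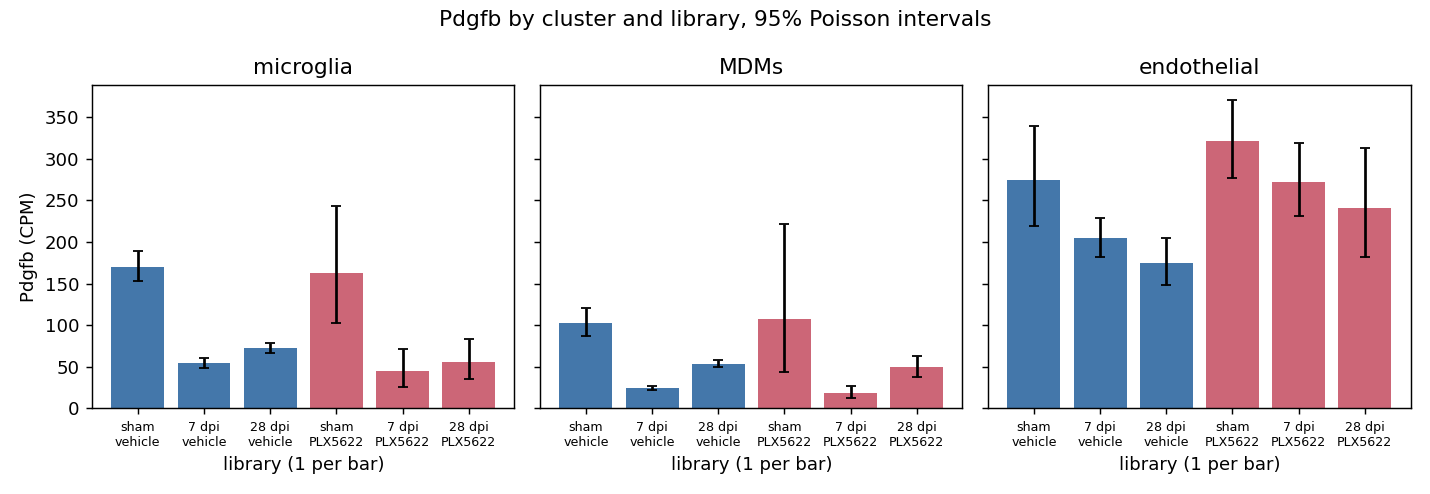
Pdgfb level (CPM, linear axis) in microglia, MDMs and the endothelial cluster, 1 bar per library, blue for vehicle and rose for PLX5622, with 95% Poisson intervals. In microglia and MDMs the vehicle sham bars (170.3 and 102.9 CPM) stand above the vehicle bars at 7 dpi (54.2 and 24.3 CPM), and endothelial bars range from 174.6 to 321.2 CPM.

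Within a time point, no diet ratio of Pdgfb passed 2-fold in microglia, MDMs or the endothelial cluster. In microglia PLX5622 over vehicle gave -0.07 (-0.75 to 0.54) for the sham libraries, -0.29 (-1.09 to 0.41) for those of 7 dpi and -0.38 (-1.04 to 0.21) for those of 28 dpi. All 3 intervals held 0, and their widths allow differences near 2-fold. MDMs gave -0.36 (-0.92 to 0.15) for 7 dpi and -0.11 (-0.50 to 0.26) for 28 dpi. The endothelial cluster gave 0.22 (-0.15 to 0.61) for sham, 0.41 (0.12 to 0.70) for 7 dpi and 0.46 (-0.0036 to 0.91) for 28 dpi, so its 7 dpi interval alone excluded 0. At 28 dpi 2 other clusters were past 2-fold on few UMIs, monocytes at -3.43 (-8.79 to -0.80) from 1 and 22 UMIs and T cells at -1.73 (-3.73 to -0.16) from 4 and 21 UMIs.

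Thinned to 1000 UMIs per cell, 19.7% of endothelial cells, 7.53% of microglia and 4.09% of MDMs had a Pdgfb UMI. T cells, B cells and neutrophils, taken as a reference for free RNA, gave 2.28%, 1.37% and 1.66%. Unthinned, the shares were 41.1%, 15.8% and 16.7% in the first 3 clusters and 5.50%, 3.98% and 3.202% in the reference clusters. Their median depths before thinning were 1692.5, 1584 and 1563 UMIs, against 2152 in the endothelial cluster, 2201 in microglia and 4705 in MDMs. The shares in endothelial cells, microglia and MDMs were above all 3, although the MDM interval (3.63 to 4.59%) overlapped that of T cells (1.25 to 3.79%).

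Pdgfa, the A chain that drives oligodendrocyte progenitors, was spread widely. Over all libraries the leptomeningeal cluster was highest (81.0 CPM), followed by MDMs (65.3 CPM), and leptomeningeal cells led in only 2 of 6 libraries. In MDMs it was at 67.7 CPM in sham, 52.2 CPM at 7 dpi and 85.0 CPM at 28 dpi under vehicle, and at 46.2, 55.0 and 67.6 CPM under PLX5622. The log2 ratio of 28 over 7 dpi under vehicle was 0.70 (0.58 to 0.82), short of 2-fold. Microglia ranged from 28.7 to 60.4 CPM, and ependymal cells from 50.6 to 71.0 CPM with all intervals overlapping. In the oligodendrocyte lineage Pdgfa was at 1 UMI in sham and 26 UMIs at 7 dpi under vehicle, a log2 ratio of 2.63 (0.02 to 7.99), which turned to -0.75 when cells were thinned to 1000 UMIs. Thinned, 6.81% of MDMs and 5.01% of microglia had a Pdgfa UMI (26.0% and 11.5% unthinned), against 0.813% of T cells, 1.14% of B cells and 1.10% of neutrophils (2.62%, 5.36% and 1.88% unthinned).

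Pdgfc, a ligand that is activated by proteases outside the cell, had only 240 UMIs in all. It was highest in the leptomeningeal cluster (27.7 CPM) and second in the fibroblast-like cluster (16.1 CPM). The vehicle sham leptomeningeal cells gave 47.3 CPM (27.0 to 76.8) from 16 UMIs and the PLX5622 sham cells 22.8 CPM from 8, and the intervals overlapped. In MDMs at 28 dpi it was at 2.45 CPM under vehicle (34 UMIs) and 13.2 CPM under PLX5622 (17 UMIs), a log2 ratio of 2.43 (1.50 to 3.31). It was the 1 of 3 members past 2-fold in that comparison, beside 9.99% of all genes, and at 7 dpi 0 of 3 were, beside 8.99%. In cells of at most 3000 genes the ratio was 1.59. Thinned, 0.284% of MDMs had a Pdgfc UMI against 1 of 362 neutrophils, 0 of 615 T cells and 0 of 437 B cells. Unthinned, it was 1.34% of MDMs, 0.188% of neutrophils and 0% of T and B cells. The thinned MDM interval (0.171 to 0.443%) lay within that of neutrophils (0.0070 to 1.53%), so no difference from the reference clusters was detectable at this depth.

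Pdgfra codes for the receptor of oligodendrocyte progenitors and fibroblasts. The oligodendrocyte lineage was highest for Olig1, Olig2, Sox10 and Cnp, while the myelin gene Mbp was highest in the neutrophil cluster. Of its 255 cells, 184 had a Pdgfra UMI. Its level was 1307 CPM in sham, 591.9 CPM at 7 dpi and 1009 CPM at 28 dpi under vehicle. Under PLX5622 it was 697.3, 449.2 and 1363 CPM, the first from 11 UMIs in 4 cells. In both diets the 7 dpi library was lowest. The log2 ratio under vehicle was -1.14 (-1.50 to -0.78) for 7 dpi over sham and 0.77 (0.41 to 1.12) for 28 over 7 dpi.

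One cell held 28 of the 102 sham UMIs of Pdgfra in that cluster. The ratio of 7 dpi over sham was -0.97 without the cell with most UMIs in each library and -0.46 with cells thinned to 1000 UMIs, so its size moved with these choices. With TMM the median gene moved from -0.04 to 0.33 and the Pdgfra ratio to -0.78. Of 2 members with enough UMIs, Pdgfra was lower and Pdgfa higher past 2-fold, beside 27.3% of all genes. None of 2 was past it for 28 over 7 dpi, beside 14.3%, and Pdgfra alone had enough UMIs for PLX5622 over vehicle at 28 dpi, with 0.43 (0.07 to 0.80) beside 12.9%. Cspg4, the NG2 proteoglycan of the same progenitors, was at a log2 ratio of 0.24 at 7 dpi over sham.

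Pdgfra was also found in the fibroblast-like (224 CPM) and leptomeningeal (81.0 CPM) clusters. In the fibroblast-like cluster it was at 285, 264 and 138 CPM under vehicle and 141 and 316 CPM in sham and at 7 dpi under PLX5622, with 0 UMIs at 28 dpi in 12 cells, where the floor is 141 CPM. Elsewhere thinned shares of cells with a Pdgfra UMI were 0.086% in microglia and 0% to 0.28% in T cells, B cells and neutrophils, against 53.1% in the oligodendrocyte lineage and 15.8% in the fibroblast-like cluster. Unthinned shares were 72.2% and 25.0% in the last pair, 0.100% in microglia and 0% to 0.188% in the reference clusters.

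Pdgfrb codes for the receptor of pericytes and vascular smooth muscle cells. Its level in fibroblast-like cells was 229 CPM in sham, 768 CPM at 7 dpi and 723 CPM at 28 dpi under vehicle, and 685, 599 and 1650 CPM under PLX5622. The vehicle sham library was below all 5 others, with no overlap of its interval (172 to 300 CPM) with theirs. The log2 ratio of 28 dpi over sham was 1.66 (1.12 to 2.20) under vehicle. In the endothelial cluster Pdgfrb was at 9.71 CPM (3 UMIs), 70.5 and 133 CPM under vehicle and at 158, 53.1 and 172 CPM under PLX5622. The vehicle sham library was again lowest, and its 3 UMIs were in 1 cell. The 7 dpi library over it gave a log2 ratio of 2.86 (1.27 to 5.16), and the 28 dpi library gave 3.78 (2.19 to 6.07).

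Astrocytes gave a smaller Pdgfrb level, 26.9, 10.9 and 14.5 CPM under vehicle and 56.3, 95.2 and 46.2 CPM under PLX5622. These values rest on 21, 2 and 6 UMIs under vehicle and 33, 10 and 7 UMIs under PLX5622. All 3 PLX5622 values were above all 3 vehicle values, with intervals that overlapped in part, and the diet ratio in sham was 1.06 (0.23 to 1.93). The same cluster held 12.9% of all Notch3 UMIs. Thinned, 3.97% of astrocytes had a Pdgfrb UMI (7.19% unthinned), against 0 of 615 T cells, 0 of 437 B cells and 0 of 362 neutrophils, which allows shares of up to 0.488%, 0.686% and 0.829% (0%, 0.153% and 0% unthinned). None of the 70 astrocytes with Pdgfrb held 3 or more of the 5 mural genes.

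The receptors shared cells in part (bar plot of receptors by cell set). Both were found together in 25 of 168 fibroblast-like cells, 21 of 134 leptomeningeal cells and 1 of 255 oligodendrocyte lineage cells. In the fibroblast-like cluster, 60 of 98 cells with Pdgfrb held 3 or more of the 5 mural genes, while 0 of 42 cells with Pdgfra did, although 25 of those 42 also had Pdgfrb. Among endothelial cells with Pdgfrb, 100 of 112 held 3 or more.

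**Figure D3:**
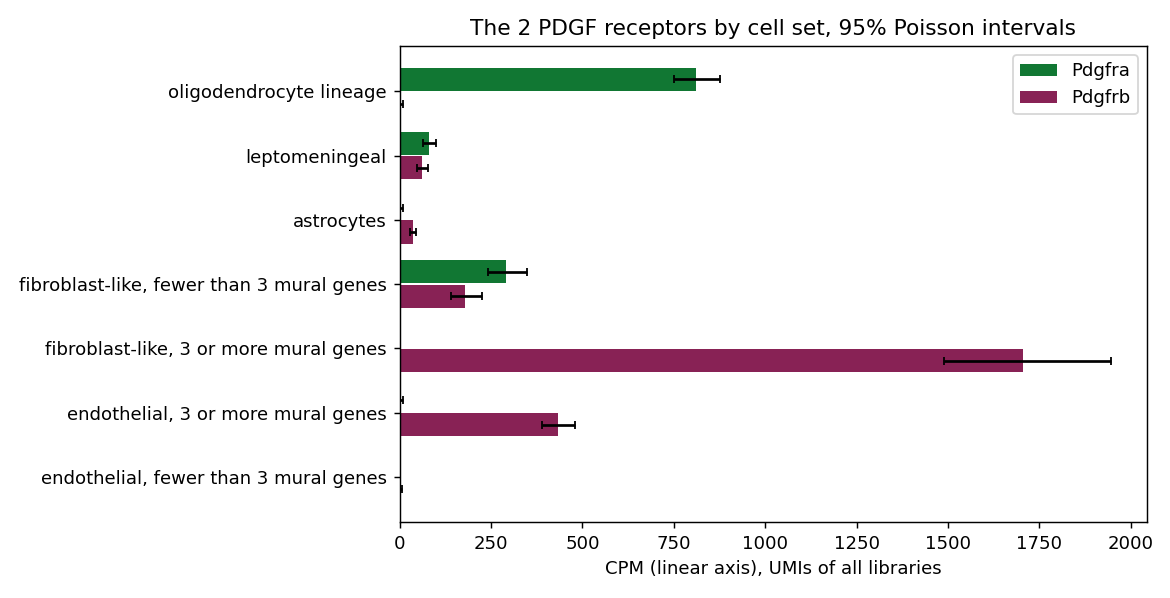
Levels of Pdgfra (green) and Pdgfrb (purple) in CPM, UMIs of the 6 libraries together, in 3 whole clusters and in the fibroblast-like and endothelial clusters split by whether a cell had 3 or more of the 5 mural genes. Bars start at 0 and lines are 95% Poisson intervals. Cells with 3 or more mural genes carry Pdgfrb (1706 and 432.5 CPM) with little or no Pdgfra, and the other fibroblast-like cells carry both.

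The mural genes were low in the vehicle sham endothelial cluster and higher in the other 5 libraries. Vtn, which codes for vitronectin, an adhesive matrix protein, was at 35.6 CPM in sham, 412 CPM at 7 dpi and 1233 CPM at 28 dpi under vehicle, and at 1033, 322 and 1467 CPM under PLX5622. Rgs5, a regulator of G protein signalling in pericytes, was at 42.1, 178 and 427 CPM under vehicle and 422, 200 and 826 CPM under PLX5622. Within each diet 28 dpi was above 7 dpi. The log2 ratios of 28 dpi over sham under vehicle were 5.12 (4.27 to 6.12) for Vtn and 3.34 (2.55 to 4.27) for Rgs5. Without the cell with most UMIs of the gene in each library they were 6.50 and 4.38.

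Kcnj8 and Abcc9 code for Kir6.1 and SUR2, the pore and the regulatory subunit of the vascular KATP channel. Both were at 0 UMIs in the vehicle sham endothelial cluster, which was set to the floor of 9.71 CPM. Kcnj8 was at 44.4 and 110 CPM at 7 and 28 dpi under vehicle, 4.58-fold and 11.4-fold that floor of 3 counts. On the log2 scale the lower interval limits were 1.85 and 3.18. Abcc9 was at 72.6 and 162 CPM, 7.48-fold and 16.7-fold the floor, with lower interval limits of 2.58 and 3.75 on the log2 scale. Under PLX5622 Kcnj8 was at 112, 56.6 and 116 CPM in sham, at 7 dpi and at 28 dpi, and Abcc9 at 96.9, 69.0 and 90.3 CPM. Notch3, the Notch receptor of vascular smooth muscle, was at 9.71 CPM (3 UMIs), 21.9 and 45.1 CPM under vehicle and 69.7, 28.3 and 51.6 CPM under PLX5622. Thinned to 1000 UMIs, the 7 dpi over sham ratios of Kcnj8 (against the floor) and Notch3 were -0.39 and -0.75, so their direction at 7 dpi was not settled at this depth.

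Of 8 members with enough UMIs in the endothelial cluster, 6 were higher past 2-fold at 7 dpi over sham under vehicle (17.2% of all genes in either direction) and the same number at 28 dpi over sham (14.5%). These were Pdgfrb and the 5 mural genes both times. For PLX5622 over vehicle in sham 7 of 8 were higher (8.46% of all genes), with Pdgfa as the added gene. All of these comparisons share the vehicle sham library, whose endothelial cluster had 82 cells. There Kcnj8 and Abcc9 had 0 UMIs, and Pdgfrb and Notch3 had 3 each. These genes had enough UMIs only through the other library of each pair and could only come out higher. The counts of 6 and 7 are therefore a description and cannot be weighed against the shares of all genes. None of 8 was past 2-fold for PLX5622 over vehicle at 7 dpi (11.5% of all genes) or at 28 dpi (12.8%), and 5 of 8 (Pdgfa, Pdgfrb, Rgs5, Vtn and Notch3) were lower at 7 dpi than in sham under PLX5622 (8.84%).

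Ratios over or of the PLX5622 sham library rested on a few deep cells. The 9 sham PLX5622 endothelial cells with 3 or more mural genes had a median of 26527 UMIs, against 5090 in the other 67, and 8 of the 9 had over 3000 genes. With cells of at most 3000 genes only, PLX5622 over vehicle in sham was 0.49 for Rgs5 and 1.03 for Vtn, in place of 3.33 and 4.86. The ratio of 7 dpi over sham under PLX5622 then changed sign, from -1.08 to 1.04 for Rgs5, from -1.68 to 1.14 for Vtn and from -1.30 to 2.18 for Notch3. Under the same limit the vehicle ratios of 28 dpi over sham were 3.34 for Rgs5 and 4.89 for Vtn.

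Within the fibroblast-like cluster Vtn was at 3438, 5450 and 6345 CPM under vehicle and 6250, 4685 and 8485 CPM under PLX5622. Rgs5 was at 268, 456 and 967 CPM and at 1323, 946 and 2168 CPM. For both genes the vehicle sham library was lowest and the PLX5622 library at 28 dpi highest. Abcc9 ranged from 173 to 1414 CPM, Kcnj8 from 221 to 792 CPM and Notch3 from 26.0 to 471 CPM, and each was lowest in vehicle sham too.

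Of 7 members with enough UMIs there, 4 were higher (Pdgfrb, Rgs5, Abcc9 and Notch3) and Pdgfra was lower past 2-fold at 28 dpi over sham under vehicle, beside 26.2% of all genes. For PLX5622 over vehicle in sham the same 4 and Kcnj8 were higher and Pdgfra was again lower, beside 19.2%. Both comparisons count Notch3, which had 6 UMIs in vehicle sham against 14 at 28 dpi and 22 in PLX5622 sham. Notch3 reached the minimum only through the other library of each pair and could only come out higher. The cluster mixes cells with and without mural genes, and the share with 3 or more of them was 14.6% in vehicle sham and 45.5% to 66.7% in the other 5 libraries. With cells of at most 3000 genes the ratio of 28 dpi over sham was 0.44 for Rgs5, -0.43 for Kcnj8 and -0.08 for Vtn, and Abcc9 turned to -1.76 when cells were thinned.

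Cells that held at least 3 of the 5 mural genes numbered 202 of 21016. The endothelial cluster had 128 of them, the fibroblast-like cluster 72, and the ependymal and B cell clusters 1 each. The remaining 10 clusters, with 7018 microglia among them, had 0. This count is a range cut from the genes themselves and not a cell type, and 39 endothelial and 14 fibroblast-like cells lay just below it with 2 genes, while 54 and 25 had exactly 3.

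Of endothelial cluster cells the share holding 3 or more was 1.22% in sham (1 of 82), 9.69% at 7 dpi (34 of 351) and 17.1% at 28 dpi (72 of 420) under vehicle. Under PLX5622 it was 11.8% (9 of 76), 6.17% (5 of 81) and 10.8% (7 of 65). The vehicle intervals at 28 dpi (13.7 to 21.1%) and at sham (0.031 to 6.61%) did not overlap, while all 3 PLX5622 intervals did. Thinned to 1000 UMIs, which kept 870 of 1075 cells, the vehicle shares were 0% (0 of 76), 4.01% and 13.2%, and the PLX5622 shares 2.94%, 2.82% and 5.66%. The order under vehicle stayed sham, 7 dpi, 28 dpi.

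Fibroblast-like cells gave shares of 14.6% in sham (6 of 41), 55.0% at 7 dpi (11 of 20) and 45.5% at 28 dpi (30 of 66) under vehicle, and 57.9%, 60.0% and 66.7% under PLX5622 from 19, 10 and 12 cells. Thinned, the vehicle share at 28 dpi was 16.2% (6 of 37), as low as the 16.1% of sham. No order of libraries was read from these shares.

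**Figure D4:**
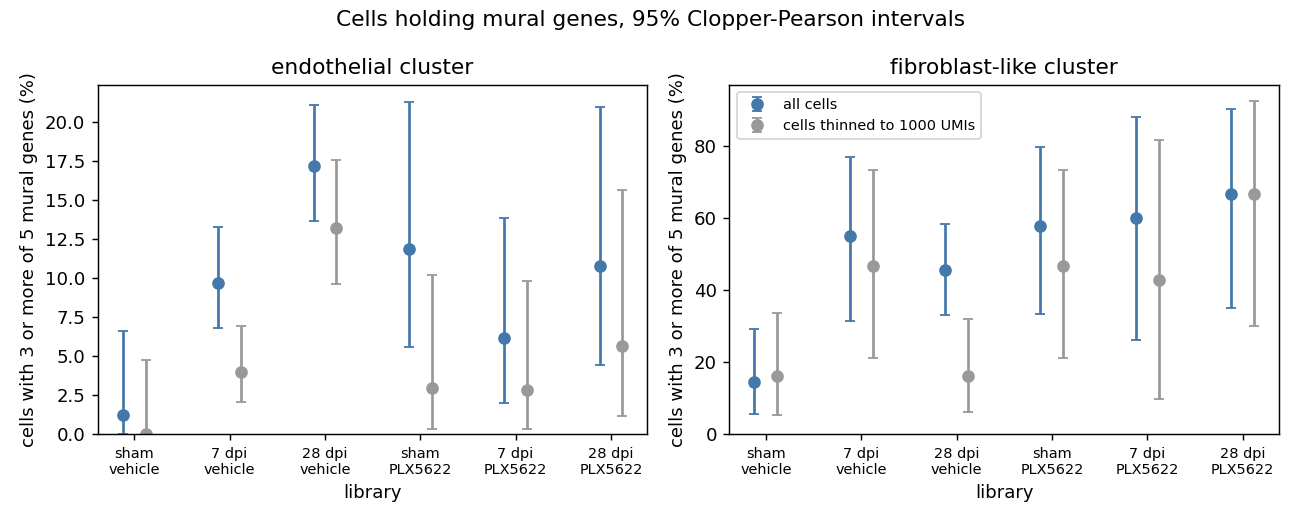
Share of cells (%) with 3 or more of the 5 mural genes in the endothelial (left) and fibroblast-like (right) clusters, by library, with 95% Clopper-Pearson intervals. Blue points use all cells and grey points use cells thinned to 1000 UMIs. The endothelial share under vehicle goes from 1.22% in sham to 17.1% at 28 dpi, and the PLX5622 points overlap in their intervals.

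The 2 sets of cells with mural genes differed in what else they held (scatter plot of cells). The 72 in the fibroblast-like cluster had a median of 0% endothelial marker UMIs, 44 of them with none, and their Pdgfrb was at 1706 CPM (1489 to 1946). They had 0 UMIs of Pdgfra and Lum, and Dcn at 138 CPM against 18440 CPM in the other 96 cells. The other 96 carried Pdgfra (292 CPM), Pdgfrb (180 CPM) and the collagen gene Col3a1 (8238 CPM). Fibroblast genes were thus low in the cells picked by their mural genes. The difference in the mural genes themselves follows from that cut. Of these, Vtn was still at 1012 CPM in the other 96 cells, with a UMI in 43 of them.

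The 128 in the endothelial cluster held mural and endothelial genes together. Endothelial markers made up a median of 1.37% of their UMIs, against 2.01% in the other 947 cells of the cluster, and 14 of the 128 were above the median of the others. Cldn5, a tight junction gene of endothelium, was at 4067 CPM against 5318 CPM, and Pdgfrb at 432.5 CPM (389.6 to 478.8) against 4.14 CPM (2.20 to 7.07). Pdgfb, the ligand, was at 208.7 CPM against 238.6 CPM, with overlapping intervals. Receptor and ligand of the same pair were thus both present in this set of barcodes.

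The 128 cells were deeper, with a median of 3858.5 UMIs against 1967, and 27 of them had over 3000 genes. A doublet caller marked 8 of the 128 (6.25%) and 109 of the other 947 (11.5%). It marked a set number of top-scoring cells per library, 2, 2 and 7 in the whole sham, 7 dpi and 28 dpi PLX5622 libraries. The 2 shares therefore also depend on which libraries the cells came from. Slc1a2, an astrocyte glutamate transporter, was at 15.2 CPM in the 128. Whether a mural cell and an endothelial cell share these barcodes was not tested.

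**Figure D5:**
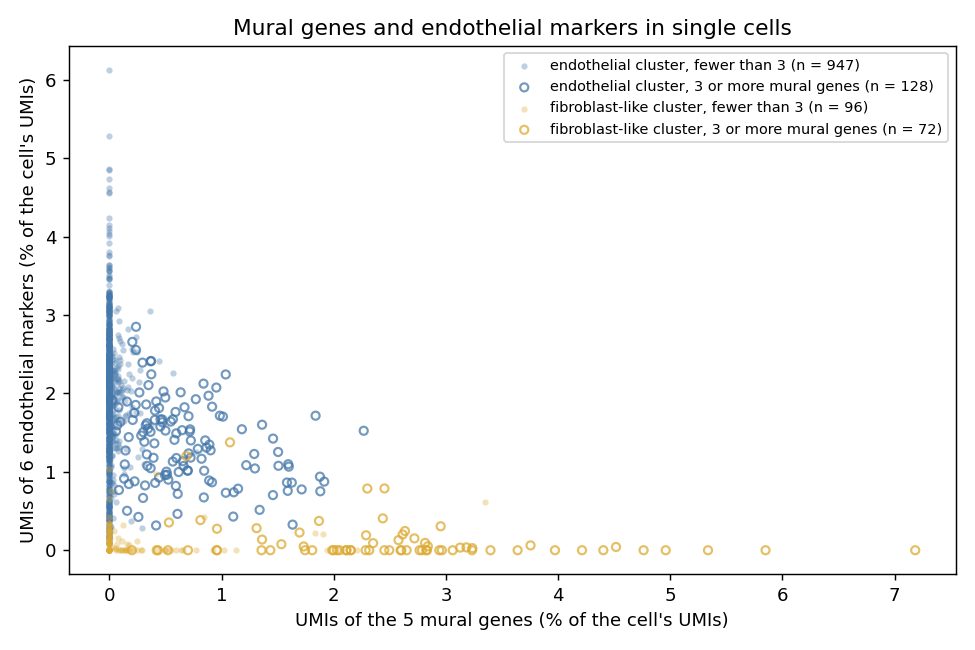
Each point is 1 cell of the endothelial (blue) or fibroblast-like (yellow) cluster, with UMIs of the 5 mural genes on the x axis and UMIs of 6 endothelial markers on the y axis, both in % of the cell's UMIs. Open circles are cells with 3 or more mural genes. Fibroblast-like open circles lie along the bottom (median 0% endothelial), and endothelial ones lie between the axes (median 1.37%).

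Kcnj8 had a further site, the T cell cluster, with 34 UMIs in 32 of 764 cells. It was found in all 6 libraries, at 12.7 to 41.1 CPM. Its partner Abcc9 had 0 UMIs in the 764 cells, as had Notch3. The thinned share was 1.95% (1.01 to 3.38%, unthinned 4.19%), against 0 of 437 B cells and 0 of 362 neutrophils. This cluster was also led by natural killer cell genes, and 2 such genes were looked up after their values were seen. The 32 cells had Gzma (a cytotoxic granule protease) at 6702 CPM against 957 CPM in the other 732, with a UMI in 17 of the 32. Ncr1 (an NK receptor) was at 398 against 114 CPM, with a UMI in 10 of the 32. Of the 4 detected T cell markers, Cd3g was lower (329 against 581 CPM) and Cd3e had overlapping intervals (261 against 344 CPM). Ccl5 (10080 against 4287 CPM) and Nkg7 (2442 against 1186 CPM) were higher. No cell type was assigned to the 32 cells from these genes.

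Lists of related genes were read in the same sums. Of 12 other mural cell genes, 11 were highest in the fibroblast-like cluster, among them Higd1b (416 CPM), Ndufa4l2 (398 CPM) and Atp13a5 (262 CPM), and Cspg4 was highest in the oligodendrocyte lineage (440 CPM). In the endothelial cluster at 28 dpi over sham under vehicle, 6 of 6 with enough UMIs were higher past 2-fold, beside 7.87% of all genes, with a median log2 ratio of 4.21 against -0.15 over all genes. At 7 dpi over sham it was again 6 of 6, beside 9.46%, with a median of 2.68. The other genes of the 12 had too few UMIs to be read. Higd1b had 0 UMIs in the vehicle sham endothelial cells, so its ratios are against the floor. A gene with so few sham UMIs reached the minimum only through the injury library and could only come out higher. These counts are therefore a description.

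Of the 7 smooth muscle genes with at least 20 UMIs, 7 were highest in the fibroblast-like cluster, but of 5 with enough UMIs in the endothelial cluster at 28 dpi over sham, 1 was higher (Myl9, log2 ratio 2.77, beside 7.87% of all genes) and 2 were lower (beside 6.66%). The lower ones were Acta2 (smooth muscle actin), at 116.5 CPM in sham and 23.6 CPM at 28 dpi, and Tagln, with log2 ratios of -2.30 and -1.74. One sham cell held 32 of the 36 sham Acta2 UMIs, and the other 81 sham cells were at 13.1 CPM, below the 28 dpi level, so the direction of Acta2 rested on that cell. Under PLX5622 at 7 dpi over sham 7 of 7 were lower, beside 6.08% of all genes, with a median of -4.33. These sums include the deep sham cells. For Acta2, the 9 sham cells with 3 or more mural genes held 170 UMIs and the other 67 held 0. At 7 dpi the 5 such cells held 1 Acta2 UMI and the other 76 held 1. A gene with so few 7 dpi UMIs reached the minimum only through the sham library and could only come out lower. In the fibroblast-like cluster at 28 dpi over sham 5 of 5 were higher, beside 8.41% of all genes, with a median of 2.16. The largest ratio was that of Acta2 (5.51). Over all 6 libraries Acta2 had a UMI in 3 of the 72 cells with 3 or more mural genes and 7 of the other 96. A gene with few sham UMIs could reach the minimum only through the 28 dpi library and then only come out higher. Both counts are therefore a description.

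Of 19 PDGF pathway genes, all with at least 20 UMIs, 7 were highest in the endothelial cluster, among them Nrp1 (493 CPM), a co-receptor, and the signalling genes Ptpn11, Crk and Stat3. A further 3 were highest in the fibroblast-like cluster, with Sparc, a matrix protein that binds PDGF, at 4764 CPM, and Plau, a protease gene, was highest in MDMs. In the endothelial cluster 0 of 14 with enough UMIs were past 2-fold at 7 dpi over sham (17.2% of all genes) and 1 of 14 at 28 dpi (Shc1, lower, against 14.5% of all genes in either direction), where the median was -0.08. In microglia at 7 dpi over sham 4 of 15 were lower past 2-fold, a share like the 26.6% of all genes, with a median of -0.75 against -0.60.

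Of 10 Notch pathway genes, Notch4, Jag2 and Dll4 were highest in the endothelial cluster and Jag1 and Hey2 in the fibroblast-like cluster with Notch3. Of 8 with enough UMIs in the endothelial cluster at 28 dpi over sham, 2 were lower past 2-fold, beside 6.66% of all genes. These were Dll4, an endothelial Notch ligand, and Hes1, a Notch target (log2 ratios -1.17 and -1.61). Of the KATP partners, Kcnj11 had 3 UMIs and Abcc8 was not analysed here. Of the 5 vitronectin receptor genes, Itgb1 (475 CPM) and Itgb3 (26.9 CPM) were highest in the fibroblast-like cluster, which also had the highest Vtn level. Itgb5 was highest in microglia (1053 CPM), Itgav in the oligodendrocyte lineage (463 CPM) and Plaur in neutrophils (69.1 CPM). These lists were drawn up with earlier results known, and their counts are a description.

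The genes most like each member were sought over 66 cluster and library sums of at least 20 cells, among 12852 genes with at least 100 UMIs. The sums share libraries and depth, so the Pearson correlations of log2(CPM + 1) are a description. Rgs5 was most like Ndufa4l2 (r = 0.94), Vtn like Ndufa4l2 (0.93), Abcc9 and Kcnj8 like Foxs1 (0.93 and 0.84), and Notch3 and Pdgfrb like Atp13a5 (0.92 and 0.90). All 3 of these partners are on the list of other mural cell genes. Pdgfra was most like Sema3d (0.91), Pdgfb like Ctla2b (0.78), Pdgfa like Apbb2 (0.83) and Pdgfc like Slc16a9 (0.76). With Spearman's measure the leading gene stayed for Rgs5, Abcc9 and Pdgfb and changed for the other 7.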

How the data were processed

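Cells of 6 libraries were sequenced by 10x Genomics single-cell RNA-seq, and the authors made the deposited values, raw counts of UMIs per gene and cell, with Cell Ranger 3.0.2, per the labels. The study's methods state limits of 200 to 3000 genes per cell and graph-based clusters. The deposited cluster numbers were kept, and clusters were named from marker lists. The counts were summed per cluster and library and scaled to CPM, with exact Poisson intervals for levels, exact conditional binomial intervals for ratios and Clopper-Pearson intervals for shares (95%). With 1 library per condition no test across conditions was made. A ratio was read as past 2-fold at a log2 size of 1 with at least 20 UMIs in sum. A library at 0 was set to a floor of 3 UMIs. Shares were also computed with each cell thinned to 1000 UMIs. Doublets were called with Scrublet (seed 0) as the top-scoring cells of each library, up to an expected 0.8% per 1000 barcodes. They were kept, and leaving them out was an alternative. The genes named are the 10 members, the genes of fixed lists, and the 3 genes most like each member by Pearson correlation, of which the first is printed. Members and lists were chosen with earlier results of these data known. Other alternatives were TMM (edgeR 4.0.16) and DESeq2 1.42.0 scaling, each cell alike, a minimum of 500 genes, other minimums of UMIs and mural genes, and, chosen after seeing the data, cells of at most 3000 genes and leaving out the cell with most UMIs of a gene. Scripts ran in Python 3.11.15 with numpy 2.4.6, scipy 1.17.1, pandas 2.3.3 and scanpy 1.11.5, and in R 4.3.3, and were tested on simulated data. Promoters were from RefSeq on GRCm38.p6. Whether same-condition mice differ cannot be measured, since each library pooled 3 to 4 mice.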

Additional observations from a re-analysis of the deposited data

Results flagged for a closer look

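For 5 pairs of ratios the counting intervals of 7 dpi over sham lay on opposite sides of 0 in the 2 diets, with 1 library per condition, and the difference was not tested. Other pairs had opposite signs with at least 1 interval that held 0 and are not listed. In the endothelial cluster the log2 ratio was 2.86 under vehicle and -1.57 under PLX5622 for Pdgfrb, a difference of 4.43. For Rgs5 it was 2.09 and -1.08, a difference of 3.16. For Kcnj8 it was 2.20 against the floor and -0.99, a difference of 3.18. For Vtn it was 3.54 and -1.68, a difference of 5.22. In the fibroblast-like cluster Vtn gave 0.66 and -0.42, a difference of 1.08. With cells of at most 3000 genes the PLX5622 ratios in the endothelial cluster were 1.04 for Rgs5 and 1.14 for Vtn, the same direction as under vehicle. The vehicle ratios rest on 3, 13, 0 and 11 UMIs of Pdgfrb, Rgs5, Kcnj8 and Vtn in 82 sham endothelial cells.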

How the results depend on the processing

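No paired analysis was possible because each condition was 1 library. The highest cluster of a gene was another in 1 of 40 combinations of gene and alternative (Pdgfc, thinned, ependymal). With TMM and DESeq2 size factors the Pdgfb ratio of 7 dpi over sham was -1.10 and -1.07 in microglia and -1.78 and -1.79 in MDMs, and that of 28 dpi over sham in microglia -0.80 and -0.77. In cells of at most 3000 genes the MDM ratio at 7 dpi was -2.44. Pdgfra in the oligodendrocyte lineage at 7 dpi over sham was -0.78 with TMM, -0.64 with each cell alike, -0.46 thinned and -0.78 in cells of at most 3000 genes. In the endothelial cluster at 28 dpi over sham, Rgs5 was 4.38 without the cell with most UMIs, and Vtn 6.50 without it, 4.02 with each cell alike and 3.73 thinned. Among ratios past 2-fold the direction turned, when thinned, for Pdgfa in the oligodendrocyte lineage at 7 dpi (-0.75), Pdgfc in microglia at 28 dpi (-1.07), Kcnj8 and Notch3 in the endothelial cluster at 7 dpi (-0.39 and -0.75) and Abcc9 in the fibroblast-like cluster at 28 dpi (-1.76). In cells of at most 3000 genes it turned for 7 dpi over sham under PLX5622 in the endothelial cluster for Rgs5 (1.04), Vtn (1.14) and Notch3 (2.18). Of smaller ratios, Kcnj8 and Vtn in the fibroblast-like cluster at 28 dpi over sham under vehicle also turned (-0.43 and -0.08, and -0.26 and -0.64 thinned). For each, the cause was not tested. The share of cells with 3 or more mural genes was 11.9% in the endothelial cluster, and 15.5% with 2 genes, 6.88% with 4 and 6.78% thinned. In the fibroblast-like cluster it was 42.9%, and 51.2%, 28.0% and 29.8%. Ratios moved beyond their counting interval in 36 of 80 thinned, 30 of 83 with each cell alike, 22 of 83 in cells of at most 3000 genes, 19 of 89 without the top cell, 7 of 89 with TMM, 5 of 89 with DESeq2 size factors, 5 of 89 without doublets and 1 of 89 with at least 500 genes. With minimums of 20, 10 and 50 UMIs the number of genes past 2-fold moved by over 1.5 times in some comparisons. Those were 1299, 1637 and 858 for 28 dpi vehicle over sham vehicle, 959, 1441 and 570 for 7 dpi PLX5622 over 7 dpi vehicle, and 1025, 1434 and 638 for 28 dpi PLX5622 over 28 dpi vehicle in the MDM cluster. They were 1406, 1929 and 606 for 7 dpi vehicle over sham vehicle, 1038, 1626 and 372 for 28 dpi vehicle over sham vehicle, 543, 1145 and 128 for sham PLX5622 over sham vehicle, 976, 1440 and 395 for 7 dpi PLX5622 over 7 dpi vehicle, 877, 1510 and 290 for 28 dpi PLX5622 over 28 dpi vehicle, and 625, 1210 and 165 for 7 dpi PLX5622 over sham PLX5622 in the endothelial cluster. They were 1101, 2143 and 386 for 7 dpi vehicle over sham vehicle, 604, 1527 and 97 for 28 dpi vehicle over 7 dpi vehicle, and 316, 1089 and 67 for 28 dpi PLX5622 over 28 dpi vehicle in the oligodendrocyte lineage. They were 764, 1661 and 253 for 28 dpi vehicle over sham vehicle, and 595, 1371 and 163 for sham PLX5622 over sham vehicle in the fibroblast-like cluster.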
